A study of Mus musculus with 2 samples.

Results

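DNase I footprints that lay outside every peak were described in mouse thymus, the organ in which T cells mature. The members were chosen by the deposited calls of the same library: a footprint on an autosome was a member when it shared no base with any peak of the longer of that library's 2 peak lists. There were 61239 such footprints of 355497 on the autosomes in replicate 1, or 17.2% (95% Wilson interval 17.1 to 17.4%). Replicate 2 had 33220 of 198976, or 16.7% (16.5 to 16.9%). The mean share was 17.0% ± 0.375 (SD, n = 2), and the other 294258 and 165756 autosomal footprints overlapped a peak by at least 1 bp. Over all chromosomes the files held 363775 and 203939 footprints.

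The assay was DNase-seq on thymus tissue from 2 female B6CASTF1/J mice aged 25 days, an F1 hybrid of the B6 and CAST strains. Each animal gave 1 library, and both belonged to 1 group with no treatment, so nothing was contrasted between conditions. Whole tissue was used, so fewer cells of a type and a weaker site in each cell cannot be told apart. Reads of an F1 hybrid come from both parental genomes, while all positions and sequences here are those of the mm10 reference.

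DNase I cuts chromatin where nucleosomes are absent or loose, and a stretch of dense cutting marks a promoter, an enhancer or another regulatory element. A peak caller reports the strongest part of such a stretch as a peak of limited width, whereas a false discovery rate (FDR) for each base can cover the whole accessible stretch. A footprint is a short run of bases with fewer cuts than its surroundings. It can mark bound protein, but the enzyme's own sequence preference can also leave one, and binding was not measured here.

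The 2 libraries differed in size. The longer peak lists held 124227 autosomal peaks in replicate 1 and 65403 in replicate 2, and read totals were not stated in the files. Promoters of all 9 thymocyte markers checked (Bcl11b, Cd3d, Cd3e, Cd4, Cd8a, Lck, Ptcra, Rag1, Tcf7) carried a peak in both libraries. None of 3 liver promoters did, B-cell markers carried 1 of 4 and 0 of 4, and myeloid markers 1 of 4 in each. Thymic epithelium markers carried 2 of 4 and 1 of 4, and erythroid markers 1 of 3 in each.

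The following windows of 31 bases are each centred on the midpoint of a replicate 1 footprint that lay outside the peaks and overlapped a replicate 2 footprint that did too. No base of the windows lay in a peak of either library, except at Tarbp1. There 21 bases with all 12 capitals lay in a replicate 2 peak, and no capital lay in the replicate 2 footprint. They are read from the GRCm38.p6 reference, the sequence of build mm10, 5′ to 3′ on the strand stated. In the first 4 the capitals mark the match to the CTCF consensus, the sequence bound by the insulator protein CTCF, and these 4 had the lowest FDR of 12 eligible pairs of footprints, meaning those outside peaks in both libraries and free of repeat-masked bases.
CTCF match between genes upstream of Foxk1, chr5:142367716-142367746, minus strand: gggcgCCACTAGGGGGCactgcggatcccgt
CTCF match in a coding exon of Fkbp2, chr19:6979608-6979638, plus strand: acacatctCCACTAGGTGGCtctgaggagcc
CTCF match between genes upstream of Tarbp1, chr8:126497651-126497681, plus strand: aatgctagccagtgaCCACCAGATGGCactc
CTCF match at the Ccdc59 promoter, in an intron of Mettl25, chr10:105841002-105841032, plus strand: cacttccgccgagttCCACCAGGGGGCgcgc

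A further 3 windows each hold a short word of a factor family active in thymocytes, marked in capitals: TGTGGTT for RUNX, CCGGAAG for ETS, and CTTTGAN for TCF/LEF. They were the top-ranked windows by FDR that did not touch an annotated untranslated region, from 34, 156 and 139 eligible pairs. At Timm13 the word lay beside the replicate 1 footprint without sharing a base, and only partly in the replicate 2 footprint.
RUNX word upstream of Timm13, chr10:80901048-80901078, minus strand: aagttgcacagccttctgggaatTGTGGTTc
ETS word upstream of Tnks, chr8:34965706-34965736, minus strand: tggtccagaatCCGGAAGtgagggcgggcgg
TCF/LEF word upstream of Tle4, chr19:14598541-14598571, minus strand: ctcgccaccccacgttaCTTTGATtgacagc

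The last 4 were the footprints farthest from any peak in both libraries, out of 11938 eligible pairs. Capitals mark the bases of the replicate 1 footprint.
Farthest, in an intron of the composite gene model Gm20388, 14184 bp upstream of Cbfa2t3, chr8:122713278-122713308, plus strand: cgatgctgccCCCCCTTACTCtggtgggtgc
Farthest, in the coding exon of H2afx, chr9:44335121-44335151, plus strand: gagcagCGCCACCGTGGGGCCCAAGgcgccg
Farthest, 587 bp upstream of the Jun start, chr4:95052794-95052824, plus strand: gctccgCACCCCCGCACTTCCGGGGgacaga
Farthest, 806 bp upstream of the Tsc22d1 start, chr14:76414140-76414170, plus strand: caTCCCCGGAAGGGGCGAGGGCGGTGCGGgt

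The footprint at the Foxk1 site was 36 bp wide in replicate 1 and lay 152 bp from the nearest peak there and 143 bp from it in replicate 2. Its lowest FDR was 7.8e-81 in replicate 1 and 1.5e-40 in replicate 2. The Fkbp2 footprint, 878 bp downstream of that gene's start, lay 184 and 249 bp from a peak, with lowest FDRs of 1.0e-92 and 6.1e-36. The footprint at the Tarbp1 site, 51 bp wide in replicate 1, came within 9 and 3 bp of a peak, and the one 50 bp upstream of Ccdc59 stood 261 and 241 bp away. Of these 4, chosen for their low FDR, 3 lay more than 100 bp from the peak in each library.

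The Timm13, Tnks and Tle4 footprints were closer to their peaks. Their gaps were 17 and 12 bp at Timm13, which encodes a mitochondrial import chaperone. At Tnks, the gene of the poly-ADP-ribose polymerase tankyrase, they were 31 and 33 bp. At Tle4, a Groucho family co-repressor gene, they were 36 and 16 bp. The lowest FDR at Tle4 was listed as 0 in replicate 1 and was 1.0e-242 in replicate 2.

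The 4 farthest footprints stood 447 and 462 bp from a peak at the Gm20388 intron and 426 and 454 bp at H2afx, the gene of the histone variant of DNA damage signalling. At Jun, the gene of an AP-1 subunit, the gaps were 379 and 381 bp. At Tsc22d1, a leucine zipper gene, they were 372 and 366 bp. Of these 4 places, 3 were within 1 kb of a gene start.

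Footprints outside peaks sat next to peaks. The median gap, counted as the bases between footprint and peak, came to 37.0 bp for replicate 1 and to 33.0 bp for replicate 2 (35 ± 2.83 bp, SD, n = 2). Gaps of at most 50 bp made up 60.2% and 64.8%, and gaps of at most 200 bp made up 94.7% and 96.5%. The largest gaps were 679 and 719 bp. Against the shorter peak list the median gap was 94.0 and 102 bp. The share outside varied little by chromosome, from 15.8% on chromosome 14 to 19.1% on chromosome 7 in replicate 1, and from 15.3% on chromosome 6 to 18.6% on chromosome 7 in replicate 2.

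At the edge of the rule the members passed smoothly into the rest. In replicate 1, 1301 outside footprints touched a peak without sharing a base and 1387 inside footprints shared exactly 1 base with one. In replicate 2 these counts were 715 and 754. The nearest peaks of the touching footprints had a median density of 5.06 and 4.99, and the peaks of those that shared 1 base had 4.98 and 4.63. Density is the authors' own signal per peak, in units they do not state. Of the inside footprints, 6.98% and 5.31% were only partly covered by a peak.

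**Figure D1:**
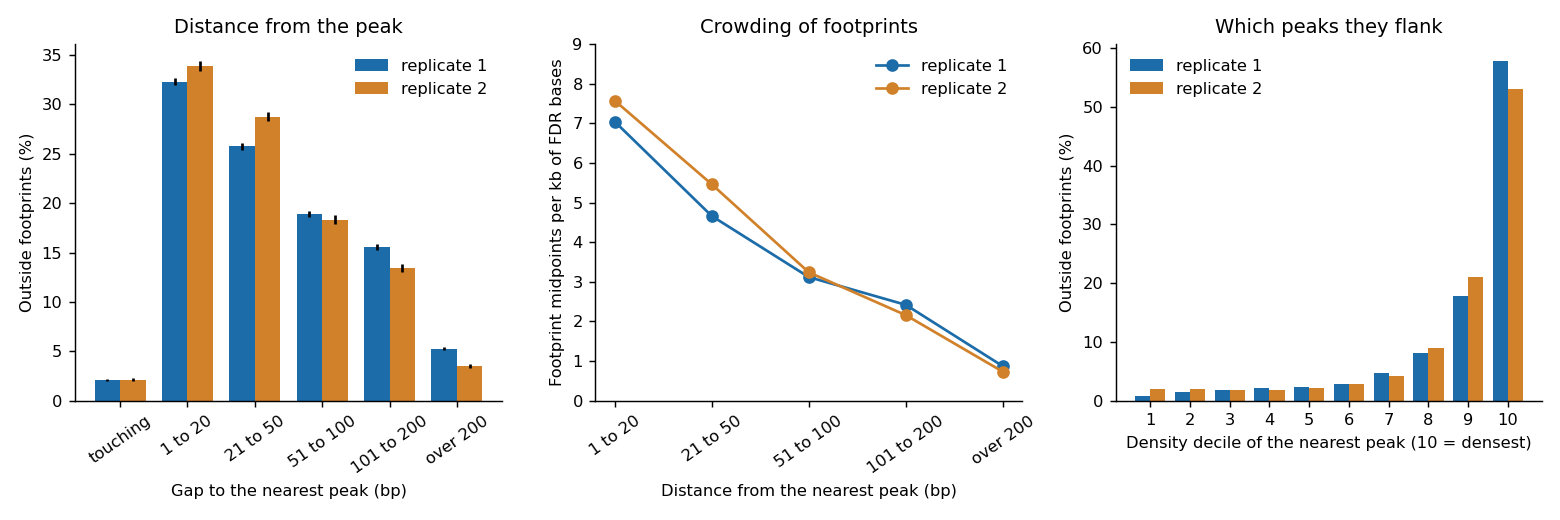
Left, share of outside footprints (%) by gap to the nearest peak (bp), with 95% Wilson intervals. Centre, footprint midpoints outside peaks per kb of bases with FDR below 0.05, by distance of the midpoint from the nearest peak (bp). Right, share of outside footprints (%) by density decile of the nearest peak; blue is replicate 1 and orange replicate 2. Crowding falls from 7.04 and 7.57 per kb beside the peak to 0.873 and 0.734 per kb beyond 200 bp, and the densest decile holds 57.8% and 53.1% of outside footprints.

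The peaks they flanked were the dense ones. The nearest peak of an outside footprint had a median density of 9.08 in replicate 1, against 1.84 for the peak of an inside footprint. In replicate 2 these were 7.63 and 1.79. Both medians count a peak once per footprint. Over all autosomal peaks, each counted once, the median was 0.830 and 0.942. An outside footprint was nearest to 21.8% and 24.3% of peaks, and to 83.6% and 91.8% of the peaks in the densest decile. In the least dense decile only 3.63% and 7.93% of peaks had one. The most footprints beside 1 peak were 17 in replicate 1 and 18 in replicate 2.

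Nearly all outside footprints lay in accessible DNA by the base-by-base measure. Every base had an FDR below 0.05 in 99.3% of them in replicate 1 and in 99.1% in replicate 2, against 99.3% and 99% of inside footprints. The footprints were derived by the authors from the same FDR values, so this agreement describes how the files were made. The lowest FDR in an outside footprint had a median of 3.3e-37 and 1.2e-30, lower than the 6.2e-16 and 7.2e-13 of inside footprints. With the shorter peak list this order turned: outside footprints then had 4.4e-10 and 6.8e-04, and inside footprints 5.2e-21 and 6.2e-19.

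Joined bases with FDR below 0.05 formed 188667 FDR regions in replicate 1 and 103324 in replicate 2. Of these, 23304 (12.4%) and 14567 (14.1%) held an outside footprint. A peak of the same FDR region lay on 1 side of 65.7% and 77.7% of outside footprints, and on both sides of 32.9% and 20.6%. Only 0.901% and 1.07% lay in an FDR region with no peak at all. The median FDR region around an outside footprint was 1209 and 863 bp wide, against 400 and 429 bp around an inside one. By the longer peak list, outside footprints were thus the flanks and inner gaps of wide accessible regions. Separate sites without a peak were rare among them. These region counts were not made with the shorter list.

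DNA outside peaks made up 20.1 of 43.7 Mb with FDR below 0.05 in replicate 1 (46.0%), and 9.97 of 22.6 Mb in replicate 2 (44.2%). It carried 3.49 and 3.74 footprint midpoints per kb, against 12 and 12.7 per kb in peaks. The gap closed where the FDR was lowest. In bases of FDR 0.001 to 0.05, there were 0.650 per kb outside and 6.29 inside in replicate 1, and 0.860 and 8.35 in replicate 2. In bases under 1e-100 there were 21.2 outside and 19.9 inside, and 20.1 and 19.4.

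Outside footprints were somewhat narrower. The median width was 10 bp in both libraries, against 11 bp inside. The narrowest width in the files, 7 bp, accounted for 28.6% and 30.0% of outside footprints, against 21.7% and 24.6% inside. Widths of 20 bp or more accounted for 15.3% and 13.4% outside, and for 26.8% and 20.6% inside. The narrow excess and the wide deficit were seen in both animals.

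Footprints outside peaks recurred in the other animal about as often as footprints inside peaks, before the FDR was taken into account. In replicate 1, 34.3% (33.9 to 34.7%) overlapped a replicate 2 footprint, against 36.0% (35.9 to 36.2%) of inside footprints. In replicate 2, 68.2% (67.7 to 68.7%) overlapped a replicate 1 footprint, against 67.9% (67.7 to 68.1%). Intervals are over footprints, which are not replicates, and cover counting error only. Under the shorter peak list outside footprints were shared less often, at 21.8% against 41.4% in replicate 1 and 56.7% against 73.2% in replicate 2. Among footprints of at least 10 bp the shares were 50.7% outside and 48.6% inside in replicate 1, and 84.3% and 83.6% in replicate 2. The part of the unequal library sizes in the difference between the 2 directions was not tested.

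By class of FDR, taken at the footprint midpoint, outside footprints were shared less often than inside ones in all 5 classes of both libraries. The classes were wide, and neither FDR nor footprint width was matched within them. For FDRs from 1e-100 to 1e-30 the shares were 42.4% outside and 60.1% inside in replicate 1, and 79.4% and 84.6% in replicate 2. Under 1e-100 they were 69.3% and 84.4%, and 85.8% and 91.4%. Inside footprints of the very peaks that had an outside neighbour were shared in 61.8% and 80.9%. Where footprints were shared, the midpoints differed by a median of 2.50 bp and 3 bp outside, and of 2.50 bp inside in both libraries.

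**Figure D2:**
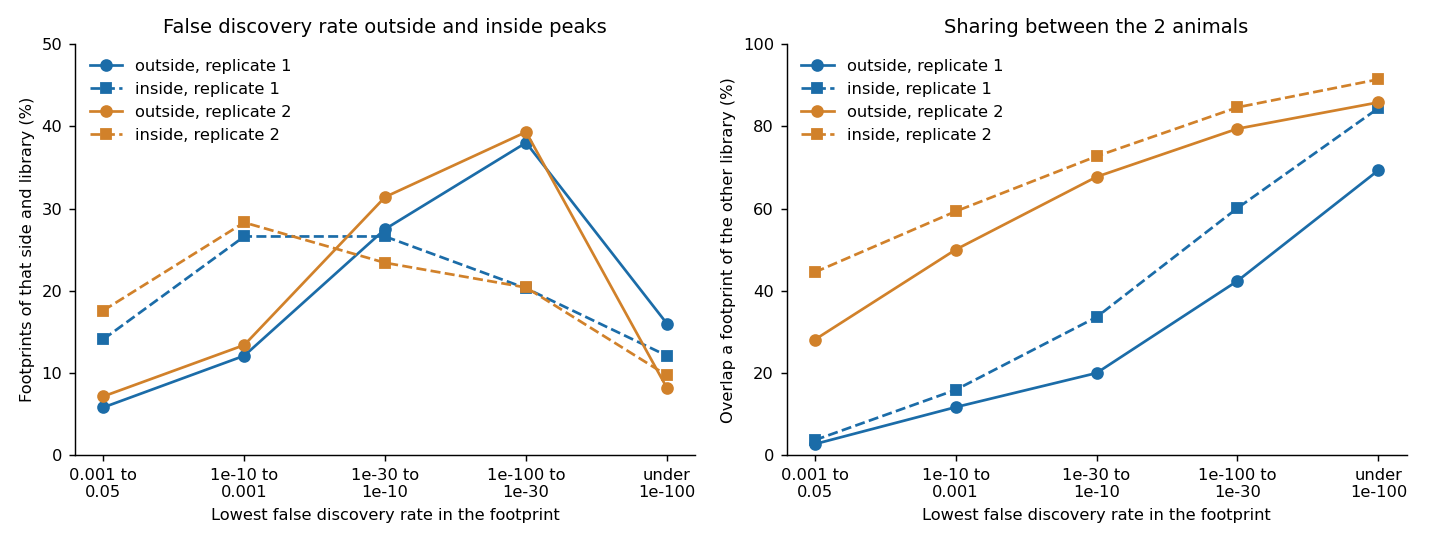
Left, share of outside (solid lines, circles) and inside (dashed lines, squares) footprints (%) in each class of FDR. The FDR is that at the footprint midpoint, although the axis label says lowest. Blue is replicate 1 and orange replicate 2. Right, share of the footprints in each class that overlap a footprint of the other library (%). The class from 1e-100 to 1e-30 holds 38% and 39.3% of outside footprints but 20.3% and 20.4% of inside ones, and every solid line in the right panel runs below the dashed line of its library.

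Being outside a peak was itself partly shared. Of the outside footprints that overlapped a footprint of the other animal, 70.7% in replicate 1 and 68.0% in replicate 2 overlapped an outside one there. Among shared inside footprints, 6.49% and 5.70% overlapped an outside one. Only 18.6% and 25.4% of outside footprints lay in a peak of the other library, against 57.7% and 90.1% of inside footprints. Yet 84.1% and 98.0% had an FDR below 0.05 at every base in the other animal, against 60% and 96.9% inside. Most of this DNA thus had an FDR below 0.05 in both animals without overlapping a peak, but it lay close to peaks in both: with the other library's peaks extended by 50 bp on each side, 56.3% and 69.4% overlapped one.

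A few footprints lay outside in 1 animal and in one of the densest peaks of the other. Upstream of Dynlt1b, which encodes a dynein light chain, a footprint of 50 bp in replicate 1 at chr17:6429940-6429989 stood 31 bp from its own peak of density 152. The replicate 2 peak there began earlier, at 6429981, and so took in its end. At the Mtmr4 promoter, 2 footprints of replicate 1 lay 24 and 118 bp past the end of a peak at 87592040 on chromosome 11, and the replicate 2 peak ran on to 87592160. Mtmr4 encodes a phosphoinositide phosphatase. In these 3 cases the peak boundary moved between animals.

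Promoters were the main location of outside footprints. A promoter was taken as 1 kb on either side of the 5′ end of a protein-coding gene of GENCODE M21. Of outside footprints, 54.9% in replicate 1 and 59.4% in replicate 2 had their midpoint there (57.1% ± 3.18, SD, n = 2), against 23.5% and 33.9% of inside footprints. Introns held 20% and 17.7% outside, against 36.0% and 30.5% inside. Intergenic DNA held 18.9% and 17.3%, against 33.6% and 28.9%. Coding exons held 1.95% and 1.76%, and untranslated exons 3.15% and 3.03%.

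Put the other way, 32.7% and 26.0% of promoter footprints lay outside peaks, and 10.9% and 11% of all other footprints did. Much of the promoter share was common to the peaks concerned: in peaks that had an outside neighbour, 47.6% and 57.9% of inside footprints were at promoters. With the shorter peak list the promoter share was 36.0% outside and 26.1% inside in replicate 1, and 37.5% and 38.4% in replicate 2, so the order turned in replicate 2.

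Within promoters, outside footprints formed a pair of shoulders around the gene start, and inside footprints filled the space between them. The fullest 50 bp bin for outside footprints was 50 to 100 bp downstream, with 11.2% of promoter members in replicate 1 and 12.3% in replicate 2. Upstream, the fullest was 150 to 200 bp before the start, with 7.30% and 7.53%. The 50 bp just before the start, where core promoter factors assemble, held 3.04% and 3.93% of outside footprints and 13.0% and 14.7% of inside ones. Downstream positions made up 58.3% and 55.7% of outside promoter footprints, against 49.3% and 48.6% inside.

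**Figure D3:**
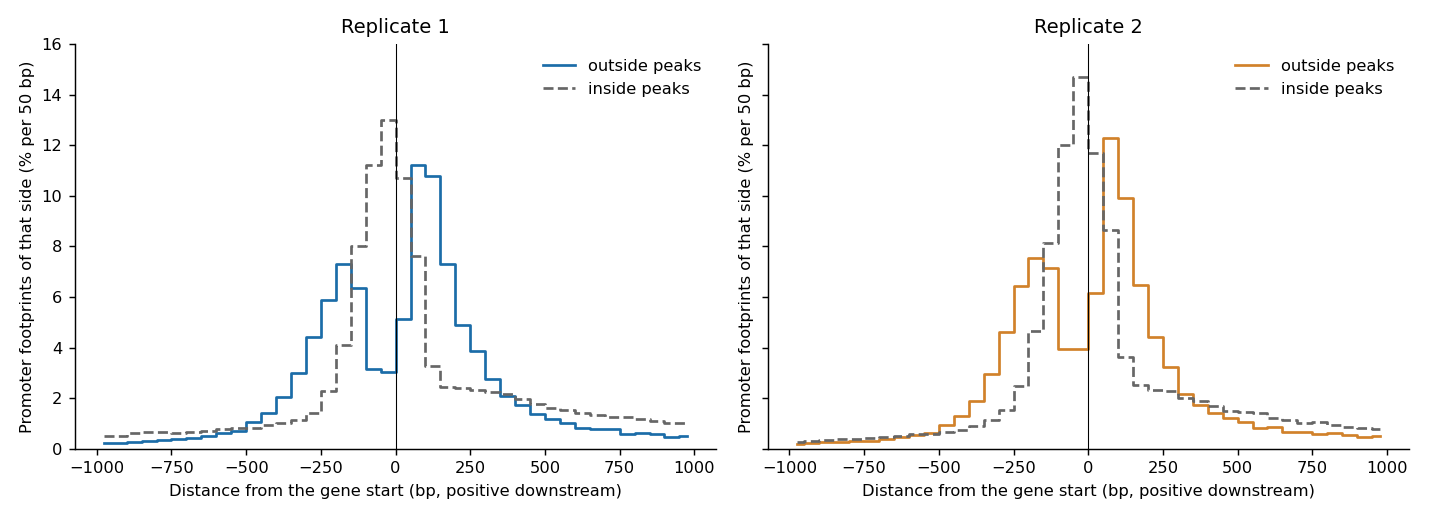
Share of promoter footprints (% per 50 bp) by distance of the footprint midpoint from the gene start (bp, positive downstream), for footprints outside (solid) and inside (dashed grey) peaks; left is replicate 1 and right replicate 2. In both, the outside curve has a shoulder on each side of the start and dips to 3.04% and 3.93% just before it, where the inside curve is highest.

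The DNA of outside footprints was rich in G and C. G and C made up 64.5% and 65.4% of their bases (64.9% ± 0.582, SD, n = 2), against 60.9% and 64.2% inside and 41.9% over all 31-base windows of the autosomes. Both sides were alike within promoters, at 69.5% outside and 69.6% inside in replicate 1 and 69.0% and 70.3% in replicate 2. Elsewhere they were 57.3% and 57.7%, and 59.0% and 60.1%. Repeat-masked bases made up 12.9% and 12.4% outside, 15.2% and 11.3% inside, and 33.5% of the autosomes.

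Sequence words of known factors were then counted in the 31 bases around each footprint midpoint, on both strands. A match describes letters and is not a measured binding site. Besides the CTCF consensus and the words above, the search used CAGCTG as the first E-box word, CACCTG as the second and CACGTG as the third, GGGCGG for the GC box, CCAATCA for NFY, GCGCATGCG for NRF1, TGACGTCA for CRE and TGANTCA for AP-1. It also used AGATAAG for GATA, AAGATGGCG for YY1, GCGTGGGCG for EGR, TGTTTAC for FOX, TTGGGAA for Ikaros, CCGTTA for MYB, CG, and the A run AAAAAAAA. The CG pair is contained in CACGTG and in the ETS, GC box, NRF1, CRE, YY1, EGR and MYB words, and the EGR and GC box words can overlap.

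CTCF matches were the scarcest outside peaks relative to inside. They occurred in 51 outside footprints in replicate 1, or 0.0833% (0.0634 to 0.109%), and in 57 in replicate 2, or 0.172% (0.132 to 0.222%). Inside footprints had them in 2.16% and 1.65%, 25.9 and 9.61 times as often. Inside footprints of peaks with an outside neighbour had 1.46% and 0.562%. The share over all autosomal windows was 0.0102%, so outside footprints still held more than that. With the shorter peak list the shares were 0.363% outside and 2.39% inside in replicate 1, but 1.49% and 1.36% in replicate 2, where the order turned.

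No CTCF match of an outside footprint touched a peak of its own library, in 0 of 51 and 0 of 57 cases. The median width of these footprints was 23.0 bp and 25.0 bp, against 10 bp for all outside footprints and 32.0 and 25.0 bp for inside footprints with a match. All 57 in replicate 2 overlapped a replicate 1 footprint, as did 99.7% of the inside ones with a match. In replicate 1, 28 of 51 overlapped a replicate 2 footprint (54.9%, against 34.3% of all outside footprints and 43.0% of inside ones with a match). In the other library, 17 of the 51 and 42 of the 57 lay in a peak (33.3% and 73.7%), against 44.5% and 99.5% of the inside ones. The median gap to their own peak was 106 bp and 52.0 bp, and 15 and 12 of them were at promoters.

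The RUNX, CACCTG, ETS and TCF/LEF words were also fewer outside over all locations. RUNX, whose members guide T-cell differentiation, had its word in 0.434% and 0.533% of outside footprints, against 1.12% and 1.29% inside and 0.624% over the genome. Within promoters it was in 0.205% and 0.264% outside and in 0.289% and 0.265% inside, so replicate 2 showed no deficit there. The RUNX ratio of outside to inside was 0.389 and 0.415, and 0.767 and 0.682 under the shorter peak list. The CACCTG E-box, a word bound by E proteins, was in 1.95% and 1.85% outside and in 3.99% and 4.24% inside. ETS words were in 0.877% and 1.01% outside, against 1.13% and 1.76% inside and 0.0759% over the genome. TCF/LEF words were in 1.35% and 1.44% outside, against 1.91% and 2.14% inside, with 2.15% over the genome. With peaks extended by 50 bp on each side the ETS ratio of outside to inside was 1.06 in replicate 1 and 0.836 in replicate 2. Within promoters alone the TCF/LEF order turned slightly, with 0.955% and 1.01% outside and 0.914% and 0.924% inside.

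The NFY and CRE words were fewer outside as well. The NFY word was in 0.216% and 0.397% of outside footprints and in 0.534% and 0.799% of inside ones. Within promoters its outside shares were 0.182 and 0.255 times the inside ones, and elsewhere 0.644 and 0.946 times. The CRE was in 0.0996% and 0.135% outside, against 0.252% and 0.409% inside. The GC box was slightly commoner outside over all locations, in 9.40% and 11.1% against 7.48% and 10.4%. Within promoters its order turned, with 13.2% and 14.7% outside against 19.1% and 20.7% inside. The GC box ratio over all locations also turned, to 0.812 and 0.638, when the shorter peak list was used. Outside promoter footprints with a GC box had a median position of 89.0 and 48.0 bp downstream of the start, whereas the inside ones had 18 and 22 bp upstream.

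A small number of words were commoner outside in both libraries. The YY1 word, read by a factor that binds just downstream of many gene starts, was in 0.225% and 0.295% outside, against 0.153% and 0.188% inside. Within promoters its outside shares were 1.03 and 1.16 times the inside ones, and elsewhere 0.666 and 0.786 times. Its promoter matches outside peaks had a median position of 71.0 and 59.0 bp downstream of the start. The MYB word was in 0.366% and 0.355% outside and in 0.215% and 0.243% inside. The Ikaros word was in 0.408% and 0.4% outside and in 0.364% and 0.285% inside, all below the 0.602% over the genome. With the shorter peak list the ratio of outside to inside was 0.974 and 0.975 for YY1, and 1.27 and 0.992 for MYB. With peaks extended by 50 bp it was 0.884 and 1.23 for Ikaros.

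The A run stood out most, at 1.23% and 1.40% outside and 0.536% and 0.495% inside, with 1.24% over the genome. It was concentrated at the peak edge: 1.99% and 1.88% of footprints 1 to 20 bp from a peak had one. Beyond 100 and up to 200 bp the shares were 0.534% and 1.01%. When peaks were extended by 50 bp on each side, the ratio of outside to inside fell from 2.30 to 1.02 in replicate 1 and from 2.84 to 1.55 in replicate 2.

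**Figure D4:**
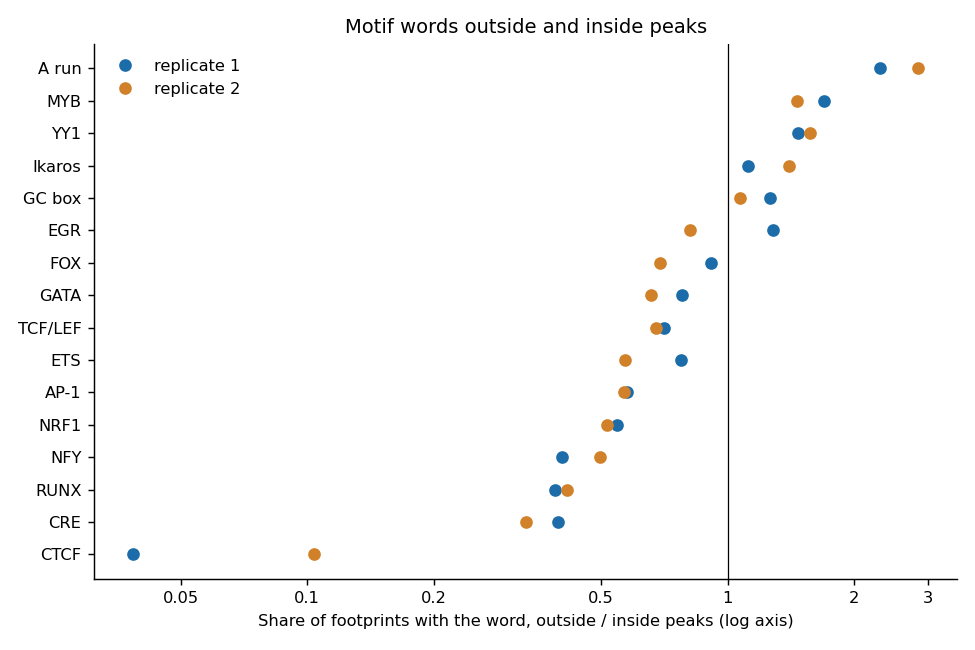
Ratio of the share of outside footprints with a word to the share of inside footprints with it, on a log axis, for 16 of the 20 words; blue is replicate 1, orange replicate 2, and the vertical line marks equal shares. CTCF lies farthest to the left, at 0.0386 and 0.104, and the A run farthest to the right, at 2.30 and 2.84.

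Outside footprints were next assigned to gene territories, which reached 10 kb beyond both ends of the gene. Over 20807 autosomal protein-coding genes the median was 2.00 outside footprints per territory in replicate 1 and 1.00 in replicate 2, and 65.3% and 54.5% of genes had at least 1. Counts rise with territory length, and neighbouring territories share footprints. The lists were chosen with earlier results of these data known, so their counts are descriptions.

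T-lineage genes had many. Of 24 surface and signalling genes, 22 and 23 (91.7% and 95.8%) had an outside footprint, against 65.3% and 54.5% of all genes. Their median was 12.5 and 7.5, against 2.00 and 1.00 over all genes. Cd247, which encodes the zeta subunit that signals for the antigen receptor, had 22 and 14. Lck, the gene of the kinase that starts receptor signalling, had 19 and 13. Cd3g and Cd3d, which encode neighbouring CD3 subunits and have overlapping territories, had 17 and 13, and 13 and 13. As a share of all footprints in the territories of this list, outside ones made up 19.9% and 18.7%, near the 20.9% and 19.5% over all genes.

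All 24 genes of T-lineage transcription factors had one in both libraries, against 65.3% and 54.5% of all genes. Their median was 15.0 and 7.5, against 2.00 and 1.00 over all genes. Ets1 had 38 in replicate 1 and 17 in replicate 2, and Runx1 had 32 and 17. Nfatc3, which encodes a calcium-regulated factor, had 27 and 18, and Ikzf3, the gene of Aiolos, had 31 and 15. Their outside share of footprints was 18.4% and 14.7%, below that of all genes in both libraries. Inside footprints numbered 166 and 39 at Ets1, 128 and 103 at Runx1, 77 and 45 at Nfatc3, and 124 and 71 at Ikzf3.

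Of 14 genes of V(D)J recombination, 14 and 12 had an outside footprint (100% and 85.7%), against 65.3% and 54.5% of all genes. Outside ones made up 19.7% and 21.4% of all footprints in their territories, near the 20.9% and 19.5% over all genes. Hmgb1, whose protein bends DNA during RAG cleavage, had 34 and 19, and Lig4, the ligase gene of end joining, had 11 and 9. All 14 housekeeping genes had one in both, with a median of 9.50 and 6.5. Their outside share, 28.5% and 27.3%, was the highest of the 10 lists in replicate 1, and in replicate 2 only the liver list was higher, at 31.7%. Ywhaz, which encodes a 14-3-3 protein, had 18 and 14, and Tubb5, a tubulin gene, had 16 and 11.

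Liver, myeloid and thymic epithelium genes had an outside footprint less often than the 65.3% and 54.5% of all genes. For liver genes this held for counts only. Outside ones made up 20% and 31.7% of all footprints in liver territories, against 20.9% and 19.5% over all genes. By that share, liver genes were near all genes in replicate 1 and above them in replicate 2. The share was 12.8% and 11.8% for myeloid and dendritic genes, and 16.4% and 11.5% for thymic epithelium genes. Liver genes had a median of 0, with 4 of 13 having an outside footprint in each library; Fgb, a fibrinogen chain gene, had 7 and 4, and Apoa2, an apolipoprotein gene, 3 and 5. Myeloid and dendritic genes had a median of 0, with 5 and 6 of 16. Among them Xcr1, a chemokine receptor gene of cross-presenting dendritic cells, had 9 and 6, and the Fc receptor gene Fcgr1 had 4 and 3. Thymic epithelium genes had a median of 1.00 and 0, with 9 and 7 of 16 having one, and 5 and 2 at Hoxa3 and 4 and 2 at Aire, the gene that drives display of tissue antigens.

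B-cell genes had a median of 6.00 and 2.00, above the 2.00 and 1.00 of all genes, and 10 and 8 of 13 (76.9% and 61.5%) had an outside footprint, against 65.3% and 54.5% of all genes. As a share of all footprints in their territories, outside ones made up 22.2% and 12.7%, against 20.9% and 19.5% over all genes. By that measure B-cell genes were below all genes in replicate 2. Cd79a, a B-cell receptor signalling gene, had 19 and 5, and Fcer2a, the gene of the low-affinity IgE receptor, 6 and 4. Erythroid genes had a median of 1.00 and 0, and 7 and 3 of 10 had one, with 12 and 8 at Klf1 and 6 and 6 at Epor. Neuronal genes had a median of 1.50 and 0.5, and 8 and 7 of 14 had one, with 9 and 10 at Dlg4 and 8 and 7 at Slc17a7, the gene of a vesicular glutamate transporter. The outside share of footprints was 19.9% and 23.0% for erythroid genes and 8.96% and 13.7% for neuronal genes. These territories include neighbouring genes, so a count does not place a footprint at the named gene's own elements.

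**Figure D5:**
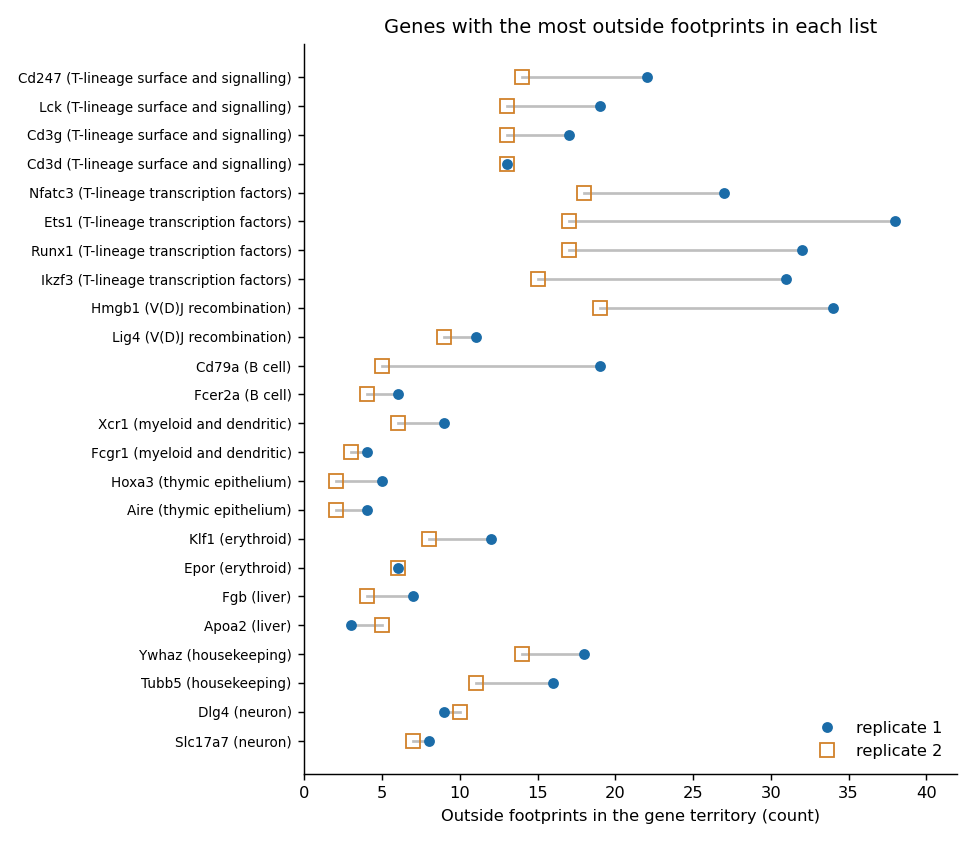
Outside footprints in the territory (count) for the named genes of each list, with the list in brackets; filled blue circles are replicate 1, open orange squares replicate 2, and a grey line joins the 2 animals. Ets1 is highest in replicate 1, at 38, and Hmgb1 highest in replicate 2, at 19; Apoa2 and Dlg4 are the genes with a higher count in replicate 2.

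Over the whole genome the highest counts went first to very long gene models. Gm20388, a composite model at chr8:119910841-124345722, had 340 and 203, and Fgfr2, whose longest model spans chr7:130162451-133123350, had 106 and 57. Ccnd3, the gene of cyclin D3, which drives the expansion of early thymocytes, had 68 and 38 at chr17:47505051-47599691. Cic, the gene of the repressor capicua, had 32 and 28 at chr7:25267704-25294159. H2-DMa, which encodes a chain of the peptide-loading chaperone of MHC class II, had 33 and 27 at chr17:34119541-34139101.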

How the data were processed

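The files were per-library DNase-seq outputs of 2 thymus libraries from 2 animals. Per the notes deposited beside the files, a library's peaks and FDR values were made from its filtered alignment alone, and footprints from the FDR values and that alignment, all on mm10. For the aligner, peak caller and footprint caller, the name and version were not stated (not given in the sources used here). The authors' peak files give a signal density per peak, with no stated scaling. The deposited FDR values are q-values for runs of bases, all below 0.05. The deposited footprints carried the same score in every line, so only positions were used. Each library's shorter peak list served as an alternative.

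Positions were intersected with a minimum overlap of 1 bp in Python 3.11.15 with numpy 2.4.6 and pandas 2.3.3. In simulated intervals 0 of 20000 overlap counts and distances differed from bedtools 2.31.1. Protein-coding models of GENCODE M21 gave gene positions, and 158 of 164 listed genes were on an autosome. Locations were assigned by midpoint in the order promoter, coding exon, untranslated exon, other exon, intron, intergenic. Motif words were matched in the RefSeq GRCm38.p6 genome in 31-base windows, beside a full tiling of the autosomes. Regions were named by lowest FDR, or largest gap, in the library where they ranked worse; genes by the most outside footprints in the library with fewer. Windows on chromosome 18 were not considered, and those in untranslated regions are not printed. The members and lists were chosen with earlier results of these data known. With 2 libraries in 1 group no test was made. Wilson intervals cover counting error only, and read depth is not stated.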

Additional observations from a re-analysis of the deposited data

Results flagged for a closer look

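Footprints outside peaks also appeared on the sex chromosomes, which the comparisons above leave out. On chromosome X, 1322 of 8189 footprints lay outside peaks in replicate 1 (16.1%) and 764 of 4860 in replicate 2 (15.7%). On chromosome Y, 11 of 89 lay outside in replicate 1 and 14 of 103 in replicate 2, although both animals are labelled female. The cause of the footprints listed on chromosome Y was not tested.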

How the results depend on the processing

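Of 46 alternative values over 9 results, 16 moved by less than the SD of the 2 libraries. Leaving out either library moves a mean of 2 by less than their SD by arithmetic, and these 18 further values ranged from 34.3% to 68.2% for sharing, from 18.6% to 25.4% for the other library's peaks and from 0.0833% to 0.172% for CTCF. Values below are means over both libraries. With the shorter peak list, 30.2% of footprints were outside, the median gap was 98.0 bp, 97.1% lay within FDR bases, 28.3% lay in a peak of the other library (10.7% in replicate 1 and 45.9% in replicate 2, from 18.6% and 25.4%), 36.8% were at promoters, 27.3% were intergenic, GC was 62.0% and CTCF matches were 0.926%. Counting a footprint as outside by its midpoint gave 19.3% outside, 27.8% in a peak of the other library and 64.2% GC. Extending peaks by 50 bp gave 6.49% outside, a median gap of 99.5 bp, 99.4% within FDR bases, 66.2% at promoters, 13.5% intergenic and 69.7% GC. Footprints of at least 10 bp gave 15.0% outside, 99.6% within FDR bases, 63.4% at promoters, 15.6% intergenic, 65.9% GC and 0.222% with a CTCF match. The share within FDR bases was 99.7% for at least 1 base, 95.3% at 0.01 and 92.5% at 0.001. Extending the other library's peaks by 50 bp raised the share in them to 62.8%. Promoters of 500 bp gave 51% and every transcript start 64.2%. Genes of all biotypes gave 14.4% intergenic. The cause of each shift was not tested. Outside and inside footprints were set side by side within each library, and no test was made because the peaks chose the members. Unstated read depth limits all counts, and a base counts as accessible only as far as each library's depth allowed.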
